A study of Homo sapiens with 32 samples.

Results

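Antiviral PARPs and their partner DTX3L were followed across 4 lines of THP-1 cells, a human monocytic leukaemia line, that differed in ATP-citrate lyase (ACLY), the enzyme that makes cytosolic acetyl-CoA from citrate. The members were 9 named genes, found by their symbols among 60107 genes: 6 interferon-linked genes (PARP9, DTX3L, PARP10, PARP12, PARP14 and ZC3HAV1) and, beside them, PARP1, PARP2 and PARP8. All 9 were among the 12406 genes that were abundant enough to test. Every line carried a knockout of endogenous ACLY. The KO line had no ACLY put back, while the WT, HA and SA lines had been transduced with lentivirus coding for ACLY and selected with puromycin. WT carried the wild-type enzyme, HA the H760A form, which has no catalytic activity, and SA the S455A form, which cannot be phosphorylated at that serine. Each line was left unstimulated or treated with lipopolysaccharide (LPS), the bacterial ligand of Toll-like receptor 4, for 3 hours at 100 ng/ml by the labels, while the treatment paragraph of the methods names a lower dose. This gave 8 groups with 4 libraries each, 32 in all. The labels name 1 line per genotype and the sources used here do not state whether KO cells were transduced, so p-values measure the spread between libraries of single lines, and other differences between the lines cannot be told apart from the genotype.

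PARPs take ADP-ribose from NAD+ and attach it to proteins or nucleic acids. PARP1 and PARP2 build long chains of it at broken DNA, whereas PARP9, PARP10, PARP12, PARP14 and PARP8 belong to the members that add single units or have little activity of their own. DTX3L is a ubiquitin ligase that works as a dimer with PARP9. ZC3HAV1, also called ZAP or PARP13, has no ADP-ribosyltransferase activity and binds viral RNA rich in CpG for decay. Type I and type II interferons are known to raise the interferon-linked genes in myeloid cells through STAT and IRF factors, and the sites of IRF factors hold repeats of GAAA.

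In GENCODE on GRCh38 several of these genes are neighbours. PARP9 (chr3:122527924-122564577, minus strand) and DTX3L (chr3:122564338-122575203, plus strand) start head to head, and PARP14 (chr3:122680839-122730840, plus strand) lies in the same stretch of chromosome 3. PARP12 (chr7:140023749-140062951, minus strand) and ZC3HAV1 (chr7:139043515-139132122, minus strand) both lie on chromosome 7. PARP1 (chr1:226360210-226408154, minus strand), PARP2 (chr14:20343615-20357904, plus strand) and PARP8 (chr5:50665899-50846519, plus strand) are elsewhere. RefSeq promoter windows (GRCh38.p14, 250 bases before to 50 bases after each start) were searched for 8 of the 9 members, 11 windows in all. No window of PARP10 was searched and its position is not given here, so nothing is said of motifs in PARP10. An interferon-response motif, GAAANNGAAA on either strand, was found in windows of 4 members, as 3 distinct elements, while 3.57% of all 35116 windows held it. Here and for the next motif, members are counted by gene and shares by window, so the units differ. A STAT-type motif, TTCNNNGAA, which reads the same on both strands, was found in windows of PARP14, ZC3HAV1 and PARP2, against 7.66% of all windows. In PARP14 these 2 motifs do not overlap. The windows of PARP1 and PARP8 held neither motif. The 30 bases around these matches are shown for the interferon-linked genes, because they place the matches next to the starts of genes described below, with the motif in capitals, 5′ to 3′ on the strand of the gene.
DTX3L, and from the other strand PARP9 (chr3:122564319-122564348, plus strand, motif at chr3:122564332-122564341): cctccagggaagcGAAACTGAAActttgcg
PARP14 (chr3:122680797-122680826, plus strand, motif at chr3:122680810-122680819): ttttccaggaaacGAAAGCGAAAgagtcaa
PARP12 (chr7:140062945-140062974, minus strand, motif at chr7:140062952-140062961): ggcccggggccgcTTTCGGTTTCgtttccc
ZC3HAV1 (chr7:139109808-139109837, minus strand, STAT-type motif at chr7:139109816-139109824): tagggtctgctctTTCCGGGAAtgggtggg
The DTX3L window and 1 of the 2 PARP9 windows thus held the same element, which starts 6 bases before the DTX3L start. For PARP9 the element lies 41 bases before a RefSeq start inside the GENCODE span of the gene. The other PARP9 window held neither motif. The ZC3HAV1 match lies 104 bases before a RefSeq start inside the GENCODE span of the gene. In the PARP14 window the interferon-response motif starts 29 bases and the STAT-type motif 40 bases before the start. A match of letters describes the window and was not tested as a site in these cells.

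The libraries held 6504099 to 14750815 reads on genes. Levels are reads per gene divided by a size factor set jointly over all libraries, called normalized counts below. The reads come from the 3′ ends of transcripts, so levels are compared between groups for each gene and not between genes. SA + LPS replicate 1 stood apart from its group. It had reads on 13460 genes, the fewest of all libraries, and its correlation over genes with the mean of its group's other libraries was 0.799, against at least 0.908 for every other library. The next lowest were KO replicate 3, KO + LPS replicate 3 and HA + LPS replicate 1. Because all groups share 1 estimate of the spread per gene, this library also touches comparisons that do not hold it, and calls that change without it are given both ways. ACLY had normalized counts of 90.7 to 117 in WT and 67.2 to 107 in KO, but reads from the 3′ end check neither an edit of the coding region nor the re-expression. All 10 monocyte markers had a normalized count of at least 10 in every library. Their sum averaged 29229 in WT, 50945 in KO, 30133 in HA and 25234 in SA without LPS. With LPS the sums averaged 29745, 51486, 37729 and 26948 in that order. T cell (CD3D, CD3E, CD8A) and erythroid markers averaged under 1. The 3 B cell markers summed on average to 27.3 to 58.6 per group and the 3 epithelial ones to 3.95 to 11.7. Fibroblast markers, none of which averaged 10, summed to 26.9 in WT, 3.19 in KO, 3.88 in HA and 14.8 in SA. The part of these differences in the results below was not tested. In bulk cultures, fewer cells of a kind and less RNA per cell cannot be told apart.

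**Figure D1:**
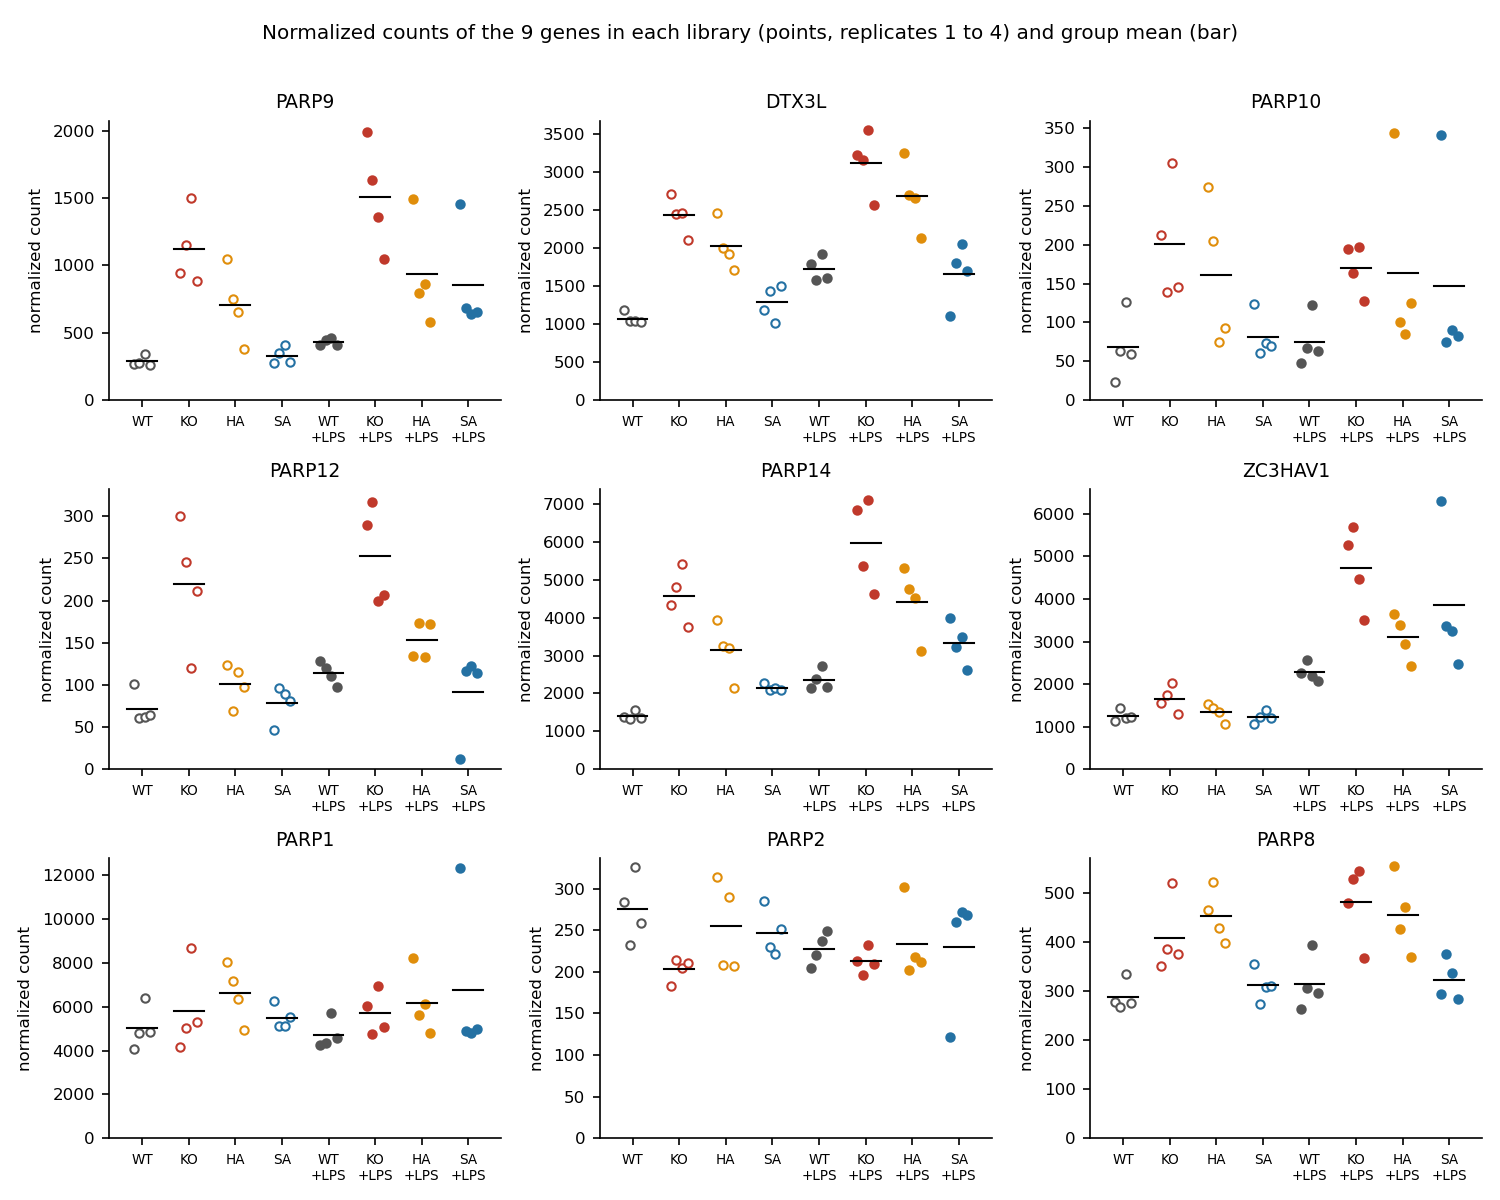
Normalized counts (vertical axes, from 0) of the 9 genes in each library, with groups on the horizontal axes, open points for unstimulated and filled points for LPS-treated cells, and bars for the group mean of 4 libraries. PARP9, DTX3L and PARP14 are lowest in WT and highest in KO + LPS, while the single blue points far from the other filled blue points are SA + LPS replicate 1 (PARP9 1455, PARP1 12355, PARP12 12.7).

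Before LPS, 3 of the 6 interferon-linked genes, PARP9, DTX3L and PARP14, were higher in both KO and HA cells than in WT cells. These 3 were the members called in unstimulated KO cells against WT, where 2.90% of all genes tested passed the same limit (limma adjusted p below 0.01, either direction). After LPS 4 rose in KO cells, these 3 and ZC3HAV1, against 3.47% of all genes. In HA cells PARP9, DTX3L and PARP14 rose without LPS (2.52% of all genes) and PARP14 rose with LPS (2.02%). No member fell in any of these comparisons. In SA cells no member and no gene passed, so the share of all genes was 0% without LPS and 0% with LPS, while 445 and 646 genes had an unadjusted p below 0.05. The median log2 fold change over the 6 interferon-linked genes was 1.62 (KO) and 1.02 (HA) without LPS and 1.18 and 0.75 with LPS, beside 0.17, 0.40, 0.27 and 0.37 over PARP1, PARP2 and PARP8, and -0.03 to -0.01 over all genes. Replicate numbers paired KO with WT libraries. With that number as a block over all libraries, the same 3 members rose in unstimulated KO cells (3.47% of all genes), and PARP8 joined the 4 after LPS, making 5 (4.47%). Fitted on the KO and WT libraries alone without a block, 3 members passed without LPS (1.44% of all genes) and 5 with LPS (2.42%), the addition being PARP12. With both changes at once, 5 members passed without LPS (5.84%) and 7 with LPS (10.8%), the additions to the fit over all libraries without a block being PARP10 and PARP12 in both and PARP8 after LPS. Without SA + LPS replicate 1, PARP12 joined the calls in KO under both conditions, making 4 members without LPS (3.84% of all genes) and 5 with LPS (5.06%), while in HA PARP8 joined without LPS (4 members, 4.48%) and DTX3L with LPS (2 members, 2.84%).

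The split of all calls depended on the scale. On the deposited scale, set within each line, the median over all genes lay at -0.13 for KO and 0.12 for HA without LPS and at -0.11 and 0.13 with LPS, and the share of calls that were higher was 50.1% in KO and 80.7% in HA without LPS, against 61.9% and 56.2% on the joint scale. With LPS the shares were 46.7% in KO and 79.5% in HA, against 61.6% and 57.6%. On the deposited scale 4 members passed in HA + LPS, where 352 of all genes passed. On the joint scale it was 1 member, where 250 of all genes passed. The higher count of members thus came with the median over all genes at 0.13 and is not read as particular to them.

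**Figure D2:**
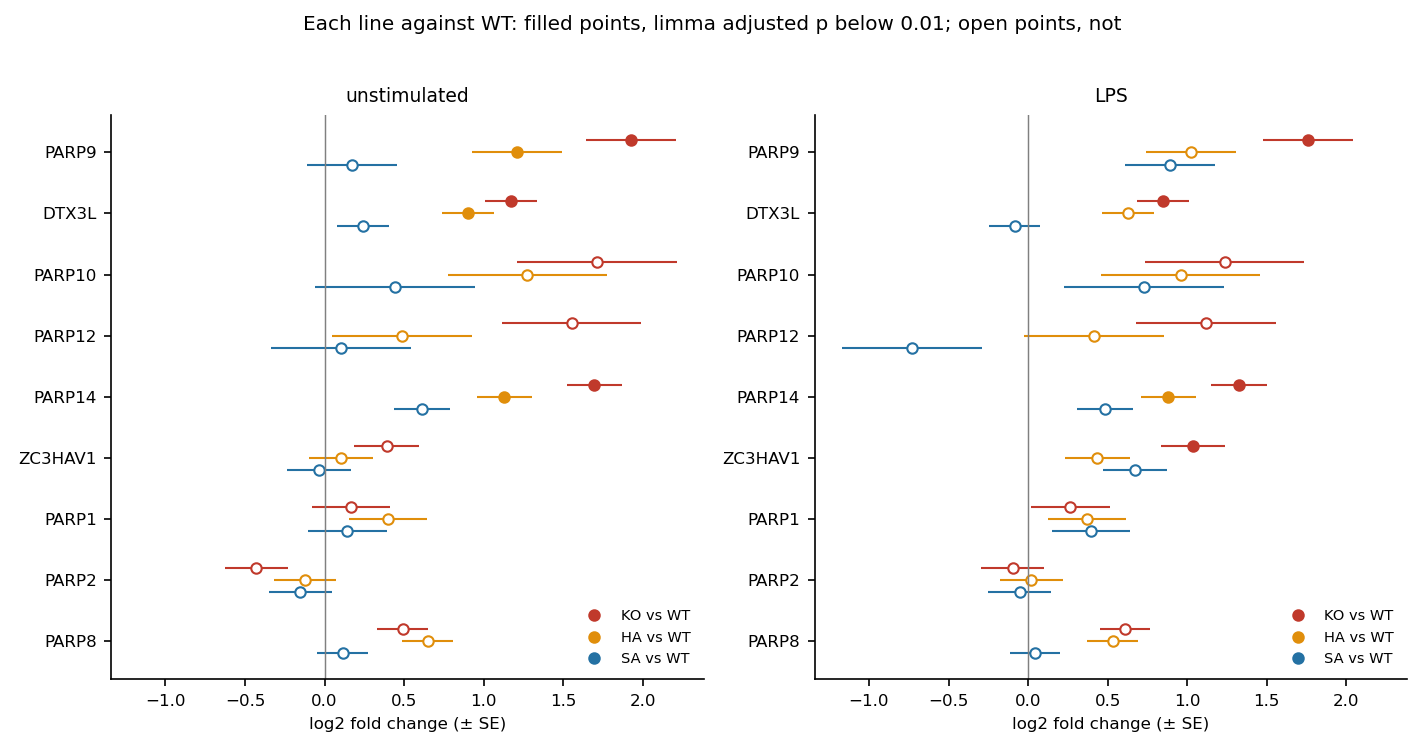
Log2 fold change of each member (horizontal axis, with its standard error) in KO, HA and SA against WT, without LPS (left) and with LPS (right), 4 libraries per group. Filled points passed a limma adjusted p below 0.01: PARP9, DTX3L and PARP14 in KO (both panels) and unstimulated HA, ZC3HAV1 in KO + LPS and PARP14 in HA + LPS.

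PARP9, the macrodomain partner in the PARP9-DTX3L dimer, had the largest log2 fold change of the members in KO cells under both conditions. Its normalized counts in replicates 1 to 4 were 271, 277, 347 and 265 in WT and 948, 1153, 1500.1 and 882 in KO. HA libraries had 1048, 754, 656 and 383, and SA libraries 277, 347, 407 and 284. Every KO and HA library lay above every WT library, and SA overlapped WT. The log2 fold change against WT was 1.92 ± 0.28 in KO (limma adjusted p = 3.15e-05), a 3.79-fold difference, 1.21 ± 0.28 in HA (limma adjusted p = 0.00854) and 0.17 ± 0.28 in SA (limma adjusted p = 0.998). The HA call was close to the limit: it held in 13 of the 32 fits that each left out 1 library. With LPS, PARP9 stood at 412, 447, 465 and 407 in WT and 1989, 1636, 1357 and 1048 in KO, which do not overlap, a log2 fold change of 1.76 ± 0.28 (limma adjusted p = 8.68e-05). HA + LPS libraries had 1493, 799, 862 and 579, all above WT + LPS, with 1.02 ± 0.28 and a limma adjusted p of 0.0354, which missed the limit. SA + LPS libraries had 1455, 683, 639.8 and 653, again all above WT + LPS, with 0.89 ± 0.28 (limma adjusted p = 0.825) and 0.61 ± 0.27 (limma adjusted p = 1.00) without replicate 1.

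DTX3L, the ubiquitin ligase of the dimer, had the same order of lines in unstimulated cells, with smaller differences from WT in KO and HA. WT libraries had 1188, 1046, 1042 and 1025 and KO libraries 2707, 2452, 2462 and 2102. HA libraries had 2461, 1997, 1918 and 1715 and SA libraries 1183, 1442, 1018 and 1504. The spread within groups was smaller than for PARP9, with a median coefficient of variation of 14.4% against 25.7%, and KO and HA libraries all lay above WT. The log2 fold change against WT was 1.17 ± 0.16 in KO (limma adjusted p = 1.29e-05), 0.90 ± 0.16 in HA (limma adjusted p = 7.81e-04) and 0.24 ± 0.16 in SA (limma adjusted p = 0.998). After LPS the counts were 1793, 1583, 1920.5 and 1612 in WT, 3224, 3160.1, 3552 and 2567 in KO, 3244, 2696, 2660.1 and 2139 in HA and 1110.3, 1799, 2049 and 1694 in SA. KO remained higher than WT by 0.85 ± 0.16 (limma adjusted p = 8.10e-04), while HA, with 0.63 ± 0.16, missed the limit (limma adjusted p = 0.0243). All 4 HA + LPS libraries lay above all WT + LPS libraries, and the limma adjusted p was 0.00502 without SA + LPS replicate 1. SA + LPS gave -0.09 ± 0.16 (limma adjusted p = 0.917), or 0.10 ± 0.15 (limma adjusted p = 1.00) without replicate 1, so the sign rested on that library.

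PARP14, a macrodomain protein that adds single ADP-ribose units and whose promoter stretch is printed above, passed in KO and HA under both conditions. WT libraries had 1376, 1333, 1554 and 1348 and KO libraries 4321, 4813, 5419 and 3756. HA libraries had 3929, 3257, 3207 and 2154 and SA libraries 2266, 2087, 2139.5 and 2082. Here each of the 3 other lines lay above WT without overlap. The log2 fold change was 1.70 ± 0.17 in KO (limma adjusted p = 7.91e-08) and 1.13 ± 0.17 in HA (limma adjusted p = 1.11e-04). In SA it was 0.61 ± 0.17, a 1.53-fold difference that did not pass over all genes (limma adjusted p = 0.998). With LPS the counts were 2147, 2383, 2734 and 2177 in WT and 6826, 5365, 7088 and 4633 in KO. HA + LPS had 5298, 4740.2, 4506 and 3106 and SA + LPS 3986, 3219, 3476 and 2608. KO and HA libraries again all lay above WT, by 1.33 ± 0.17 (limma adjusted p = 5.65e-06) and 0.88 ± 0.17 (limma adjusted p = 0.00203), whereas SA overlapped WT (0.48 ± 0.17, limma adjusted p = 0.825). The HA + LPS call held in 28 of 32 fits without 1 library. It was lost without HA + LPS replicate 1 or 2 or WT + LPS replicate 1 or 4.

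PARP10 and PARP12 add single ADP-ribose units, and PARP12 also has zinc fingers that bind RNA. Both had few reads, 16 to 296 per library for PARP10 and 11 to 266 for PARP12, and wide spreads, with median coefficients of variation of 50.6% and 25.8% against 8.14% and 9.58% from counting alone. PARP10 ranged over 22.9 to 127 in WT and 139.7 to 305 in KO without LPS, and over 47.9 to 122 and 128 to 196 with LPS. PARP12 ranged over 61.1 to 102 in WT and 120.3 to 300.0 in KO, and over 97.5 to 129 and 199 to 316 with LPS. In each of these pairs all KO libraries lay above all WT libraries. The log2 fold changes in KO were 1.71 ± 0.50 for PARP10 (limma adjusted p = 0.0444) and 1.55 ± 0.44 for PARP12 (limma adjusted p = 0.0359) without LPS. With LPS they were 1.23 ± 0.50 (limma adjusted p = 0.17) and 1.12 ± 0.44 (limma adjusted p = 0.151). These values missed the limit. With the replicate block over all libraries they missed it too, with limma adjusted p of 0.0362 and 0.141 for PARP10 and 0.0408 and 0.153 for PARP12, in the order without and with LPS. Fitted on the KO and WT libraries alone, without a block, the values were 0.0932 and 0.0355 for PARP10 and 0.0223 and 0.00997 for PARP12, of which the last passed. With the block in that smaller fit both genes passed, with limma adjusted p of 0.00437 and 0.00126 for PARP10 and 4.43e-04 and 1.87e-04 for PARP12. Their calls in KO thus rest on which libraries entered the fit as well as on the block. PARP12 also passed without SA + LPS replicate 1, with limma adjusted p of 9.21e-05 and 0.00346, although that library is in none of these groups.

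In HA cells PARP12 stood at 68.7 to 124 without LPS and 133 to 173 with LPS, and PARP10 at 75.5 to 273 and 85.2 to 343. None passed against WT, although the PARP12 libraries of HA + LPS all lay above those of WT + LPS, with limma adjusted p of 0.493, 0.685, 0.12 and 0.338 in that order. SA cells had 60.7 to 123 for PARP10 and 46.9 to 96.4 for PARP12 without LPS. With LPS the SA range was set by replicate 1, which held 340 of PARP10 and 12.7 of PARP12, while the other 3 libraries averaged 82.9 ± 7.72 and 117 ± 4.20 (SD, n = 3).

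ZC3HAV1, the CpG-binding zinc finger protein, differed from the other interferon-linked genes in that KO and WT cells overlapped before LPS. Unstimulated WT libraries had 1136, 1442, 1198 and 1227 and KO libraries 1555, 1744, 2029.8 and 1292, a log2 fold change of 0.39 ± 0.20 (limma adjusted p = 0.398). HA stood at 1073 to 1542 and SA at 1057 to 1395, both overlapping WT. After LPS, WT libraries had 2262, 2569, 2187 and 2080.1 and KO libraries 5258, 5682, 4479.5 and 3504. The groups then no longer overlapped, and KO was higher by 1.04 ± 0.20 (limma adjusted p = 9.77e-04). HA + LPS libraries had 3647, 3398, 2949 and 2424, with 0.44 ± 0.20 against WT (limma adjusted p = 0.269). SA + LPS libraries had 6309.6, 3368, 3245 and 2481, with 0.67 ± 0.20 (limma adjusted p = 0.825), or 0.41 ± 0.17 without replicate 1.

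PARP1 and PARP2, the DNA-damage PARPs, and PARP8, a less studied member that adds single units, passed in none of the comparisons between lines in the fit over all libraries without a block. PARP1 averaged 5027 ± 972 in WT, 5795 ± 1989 in KO, 6634 ± 1317 in HA and 5498 ± 542 in SA without LPS (SD, n = 4). All of these groups overlapped WT, and the log2 fold changes ran from 0.14 ± 0.25 in SA to 0.40 ± 0.25 in HA, with limma adjusted p of 0.998 and 0.313. KO replicate 3 held 8684 against 4152 to 5314 in the other KO libraries. PARP2 stood at 232 to 326 in WT and 183 to 214 in KO, which did not overlap, with a log2 fold change of -0.43 ± 0.20 that did not pass (limma adjusted p = 0.307). With LPS PARP2 gave -0.10 ± 0.20 and the groups overlapped. PARP8 libraries had 278, 268, 335 and 276 in WT, 353, 387, 522 and 376 in KO and 466, 523, 429 and 399 in HA. Every KO and HA library thus lay above every WT library, with 0.49 ± 0.16 in KO (limma adjusted p = 0.0787) and 0.65 ± 0.16 in HA (limma adjusted p = 0.012, and 0.00766 without SA + LPS replicate 1). With LPS PARP8 stood at 263 to 395 in WT and 369 to 546 in KO, and 0.61 ± 0.16 missed the limit (limma adjusted p = 0.0163), but it passed with the replicate block over all libraries (limma adjusted p = 0.00593) and with the block on KO and WT libraries alone (limma adjusted p = 0.00426), and not on those libraries without the block (limma adjusted p = 0.0876).

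In the order of the 8 groups by mean level, neighbours did not overlap in 4 cases over the 9 members. Such gaps were not counted over all genes, so their number is not read as particular to the members. For PARP9 the order ran from WT over SA, WT + LPS, HA, SA + LPS, HA + LPS and KO to KO + LPS. Of its neighbours, only SA and WT + LPS did not overlap. PARP14 had the same order, with WT apart from SA as its only gap between neighbours. DTX3L ran from WT over SA, SA + LPS, WT + LPS, HA, KO and HA + LPS to KO + LPS with every pair of neighbours overlapping. PARP12 had a gap between WT + LPS and HA + LPS, and ZC3HAV1 between unstimulated KO and WT + LPS. Neighbours of PARP10, PARP1, PARP2 and PARP8 all overlapped. The highest group mean was 5.20 times the lowest for PARP9 and 4.26 times for PARP14, against 1.43 for PARP1 and 1.36 for PARP2.

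LPS itself raised ZC3HAV1 in 3 of the 4 lines, and no other member passed in the fit over all libraries without a block. The log2 fold change of ZC3HAV1 against unstimulated cells of the same line was 1.51 ± 0.20 in KO (limma adjusted p = 2.08e-05, 0.580% of all genes called), 1.20 ± 0.20 in HA (limma adjusted p = 7.63e-04, 0.403%) and 1.57 ± 0.20 in SA (limma adjusted p = 1.19e-05, 0.492%). Without SA + LPS replicate 1, the SA value was 1.31 ± 0.17 (limma adjusted p = 1.96e-05, 0.427%) and ZC3HAV1 was still the 1 member called. In WT it was 0.86 ± 0.20 (limma adjusted p = 0.0531) with no overlap between the groups, in a comparison where 0 members and 0.250% of all genes passed. Without SA + LPS replicate 1 it passed in WT too (limma adjusted p = 0.00355, 1 member, 0.314% of all genes). LPS-treated libraries of ZC3HAV1 lay above all unstimulated ones of the same line in all 4 lines. Fitted on the libraries of 1 line alone, without a block, the KO and SA calls did not pass (0 members each). The share of all genes was 0.169% in KO and is not given here for SA.

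WT libraries paired by replicate number between LPS and unstimulated cells. With that block over all libraries, 2 members rose in WT (0.314% of all genes), ZC3HAV1 (limma adjusted p = 0.00958) and PARP14 (limma adjusted p = 0.002). On WT libraries alone without the block, 0 members passed (0.113% of all genes). With the block on WT libraries alone, 4 members passed (1.02% of all genes): ZC3HAV1 (limma adjusted p = 8.62e-09), PARP14 by 0.75 ± 0.17 (limma adjusted p = 7.74e-08), DTX3L by 0.68 ± 0.16 (limma adjusted p = 1.20e-06) and PARP9 by 0.58 ± 0.28 (limma adjusted p = 9.34e-04), where the errors given are those of the fit over all libraries without a block. DTX3L and PARP9 passed on LPS in WT in this last fit and in neither of the others (limma adjusted p = 0.0637 and 1.00 with the block over all libraries). In KO, whose numbers also paired, ZC3HAV1 was the 1 member called with the block over all libraries (0.717% of all genes) and with the block on KO libraries alone (0.935%). The log2 fold changes of PARP9, DTX3L and PARP14 on LPS were 0.42 ± 0.28, 0.36 ± 0.16 and 0.38 ± 0.17 in KO and 0.40 ± 0.28, 0.41 ± 0.16 and 0.50 ± 0.17 in HA, none of which passed. In SA, PARP9 stood at 1.30 ± 0.28 (limma adjusted p = 0.0149), or 1.02 ± 0.27 (limma adjusted p = 0.103) without replicate 1. PARP1, PARP2 and PARP8 had log2 fold changes on LPS between -0.26 and 0.23 over the 4 lines, and none passed.

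**Figure D3:**
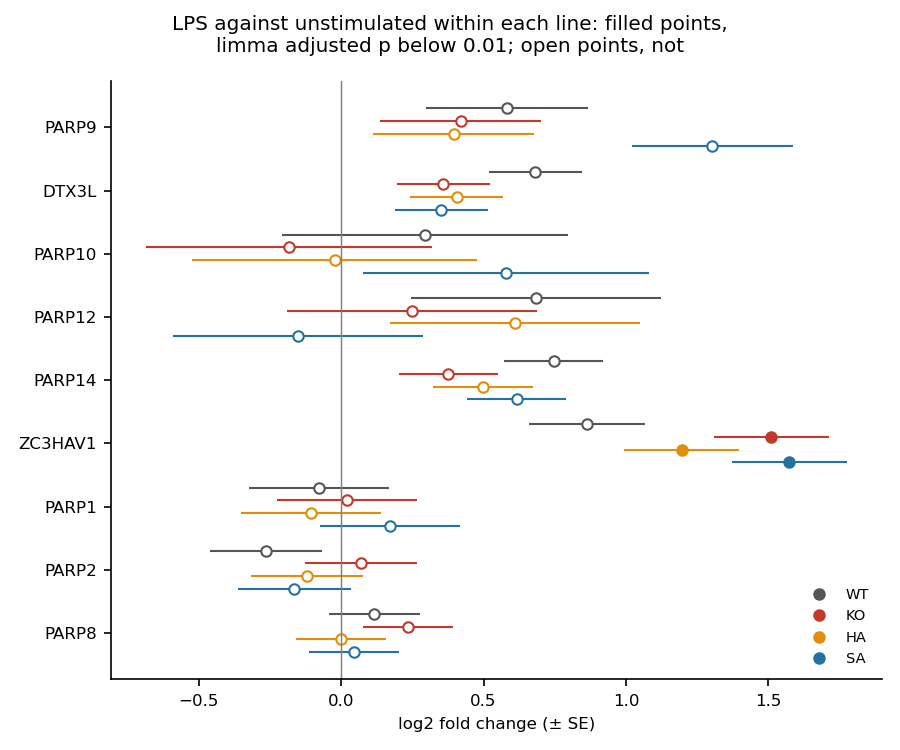
Log2 fold change of each member on LPS within each line (horizontal axis, with its standard error), 4 libraries against 4. ZC3HAV1 is the member with filled points, which passed a limma adjusted p below 0.01 in KO, HA and SA, and its WT point at 0.86 did not.

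Whether the LPS response differed between lines was tested as the difference of the log2 fold changes. No member passed for KO minus WT (0.00806% of all genes, and 0.00806% again with the replicate block, with only the KO and WT groups, and with both), HA minus WT (0%) or SA minus WT (0%). For ZC3HAV1 the differences were 0.65 ± 0.29 for KO (limma adjusted p = 1.00, 1.00 with the block over all libraries and 0.196 with the block on KO and WT groups alone), 0.33 ± 0.29 for HA and 0.71 ± 0.29 for SA. For PARP14 they were -0.37 ± 0.25, -0.25 ± 0.25 and -0.13 ± 0.25, and for DTX3L -0.32 ± 0.23, -0.28 ± 0.23 and -0.33 ± 0.23. The larger ZC3HAV1 response of KO cells is thus not shown to differ from that of WT cells.

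KO and HA cells, which by design both lack active ACLY, were then set against each other. No member passed, without LPS (0.226% of all genes) or with it (0.00806%). The interferon-linked genes had log2 fold changes of KO over HA from 0.27 to 1.06 without LPS and from 0.22 to 0.74 with LPS. The largest were 1.06 ± 0.44 for PARP12 and 0.72 ± 0.28 for PARP9 without LPS, with limma adjusted p of 0.412 and 0.396. After LPS all PARP12 libraries of KO lay above those of HA, at 0.70 ± 0.44 (limma adjusted p = 0.575). PARP14 gave 0.56 ± 0.17 and 0.44 ± 0.17, with overlapping libraries.

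SA cells, whose ACLY cannot be phosphorylated at serine 455, served as a second comparison for KO and HA. In unstimulated cells KO exceeded SA for PARP9 by 1.75 ± 0.28 (limma adjusted p = 1.40e-04), DTX3L by 0.93 ± 0.16 (limma adjusted p = 3.94e-04) and PARP14 by 1.08 ± 0.17 (limma adjusted p = 1.40e-04), 3 members against 2.86% of all genes. After LPS, 3 members passed again (2.93%): DTX3L by 0.94 ± 0.16 (limma adjusted p = 3.49e-04), PARP14 by 0.84 ± 0.17 (limma adjusted p = 0.00245) and PARP12 by 1.85 ± 0.44 (limma adjusted p = 0.00863). Without SA + LPS replicate 1 the number was also 3 (2.77%), but PARP12 no longer passed (1.07 ± 0.27, limma adjusted p = 0.0151) and PARP9 did (1.15 ± 0.27, limma adjusted p = 0.00816). The PARP12 call held in 9 of 32 fits that each left out 1 library. In unstimulated cells, leaving out that same SA library added PARP12 (limma adjusted p = 2.63e-04, 4 members, 4.05%). On the deposited scale 0 members passed between KO and SA with LPS. The median over all genes then lay at -0.32, against 0.04 on the joint scale. On the deposited scale 1192 genes passed, 10.2% of them higher, against 363 genes with 60.3% higher on the joint scale. The 0 thus came with a shift of all genes and is not read as particular to the members. A fit on the KO + LPS and SA + LPS groups alone gave 0 members too. Leaving out KO + LPS replicate 1 or replicate 3 left 1 member, DTX3L. Shares of all genes in these fits are not given here, so their counts are not read as particular to the members. SA against WT with LPS, without that SA library, gave 0 members and 0% of all genes. HA against SA gave 0 members without LPS (1.50%) and DTX3L alone with LPS (0.71 ± 0.16, limma adjusted p = 0.00839, 2.02%), which was lost without SA + LPS replicate 1 (0.53 ± 0.15, limma adjusted p = 0.0325, 2.22%). It was also lost without HA + LPS replicate 1, 2 or 3 and without SA + LPS replicate 2 or 4, and held in 14 of 32 such fits in all. Without HA replicate 4 the unstimulated comparison gave 1 member, PARP9, in a fit whose share of all genes is not given here. Without SA + LPS replicate 1 that comparison gave 1, DTX3L (limma adjusted p = 0.00364, 2.56%).

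**Figure D4:**
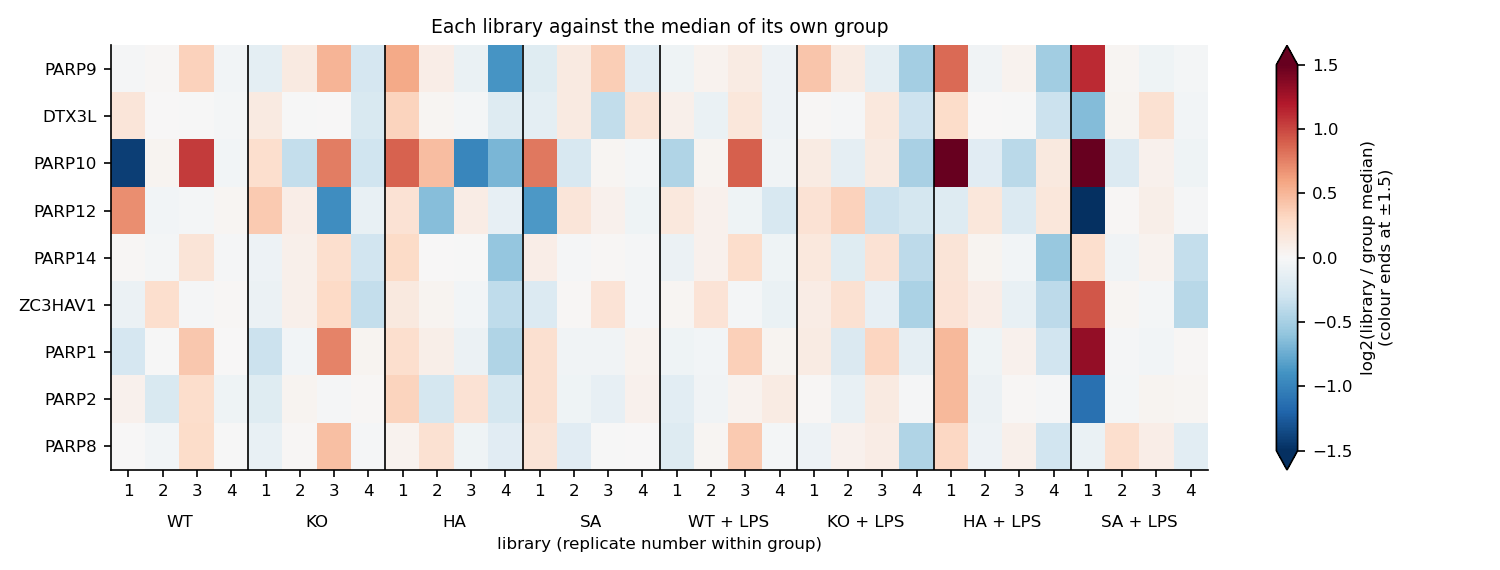
Colour gives log2 of each library's normalized count over the median of its own group, for the 9 genes (rows) and 32 libraries (columns, by group and replicate). SA + LPS replicate 1 is high for PARP9, PARP10, ZC3HAV1 and PARP1 and low for DTX3L, PARP12 and PARP2, and HA + LPS replicate 1 is high for PARP9 and PARP10.

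PARP9 and DTX3L share a promoter region and a protein complex, so their reads were also set against each other within each library, which needs no scaling. The PARP9 reads per DTX3L read were 0.228, 0.265, 0.333 and 0.259 in WT and 0.35, 0.47, 0.609 and 0.42 in KO. With LPS they were 0.23, 0.282, 0.242 and 0.253 and 0.617, 0.518, 0.382 and 0.408. All KO libraries lay above all WT libraries under both conditions. The log2 ratio differed by 0.75 ± 0.20 without LPS and 0.91 ± 0.17 with LPS, each with a two-sided exact permutation p of 0.0286, the smallest that 4 against 4 libraries allow, and an adjusted p of 0.114 over 12 comparisons. HA libraries had 0.426, 0.377, 0.342 and 0.223 without and 0.46, 0.296, 0.324 and 0.271 with LPS, which overlapped WT. SA libraries had 0.234, 0.241, 0.4 and 0.189 without and 1.31, 0.38, 0.312 and 0.386 with LPS, of which the value of 1.31 was that of replicate 1. All 4 SA + LPS libraries lay above WT + LPS (0.98 ± 0.48, exact permutation p = 0.0286, adjusted p = 0.114).

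The make-up of PARP family reads also differed between KO and WT. Over 17 PARP family genes counted together, PARP1 took 53.3% ± 3.42 of the reads in WT (SD, n = 4), 37.9% ± 5.40 in KO, 48.9% ± 0.709 in HA and 51.6% ± 2.62 in SA. PARP14 took 15.0% ± 1.19 in WT and 30.7% ± 3.07 in KO, with HA at 23.0% ± 1.26 and SA at 20.2% ± 0.368. KO libraries did not overlap WT for either gene. After LPS the PARP1 share was 41.9% ± 2.54 in WT and 28.8% ± 3.72 in KO, and the PARP14 share 20.9% ± 0.525 and 29.9% ± 2.17. ZC3HAV1 went from 13.5% ± 1.99 in WT and 11.1% ± 1.13 in KO without LPS to 20.3% ± 2.61 and 23.8% ± 3.75 with it. These shares are of reads and were not tested. A share moves with every gene in the sum, and the PARP1 level itself overlapped between KO and WT, so the lower PARP1 share in KO does not show a fall of PARP1.

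**Figure D5:**
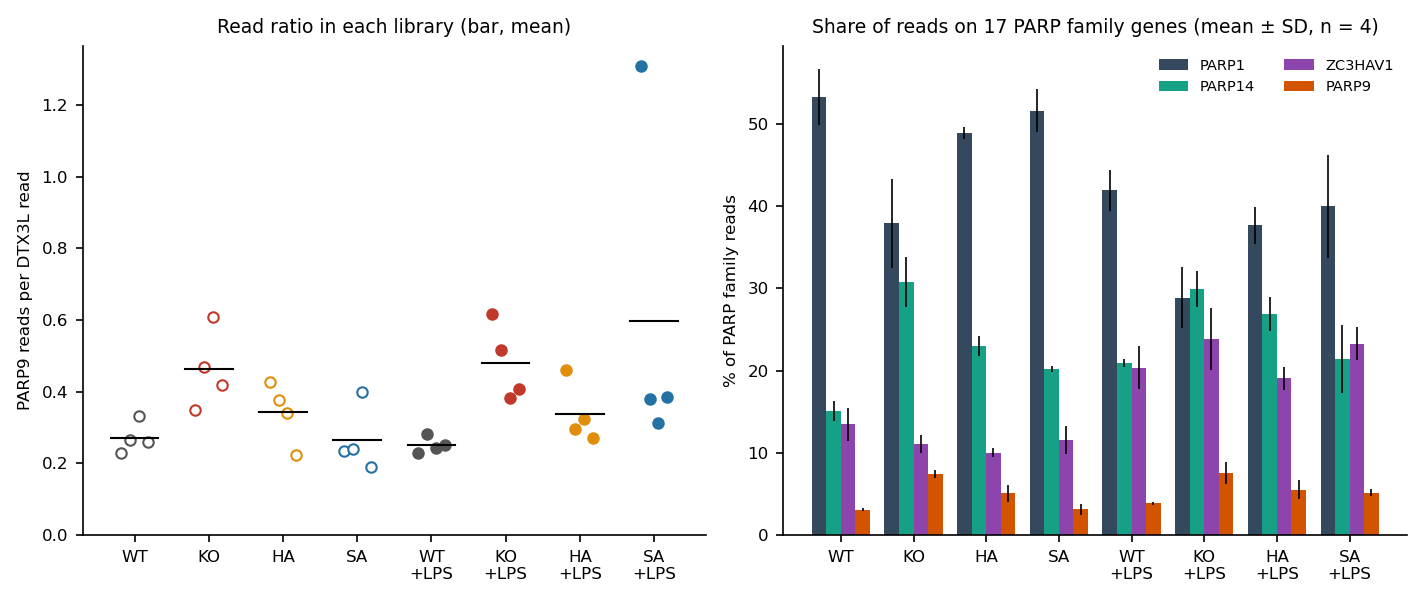
Left, PARP9 reads per DTX3L read in each library (points) with the group mean (bar); right, mean share of the reads of 17 PARP family genes taken by PARP1, PARP14, ZC3HAV1 and PARP9, with SD of 4 libraries. The PARP1 bar stands at 53.3% in WT and 37.9% in KO, where PARP1 levels overlapped, and the PARP14 bar at 15.0% and 30.7%, and the ratio of 1.31 is SA + LPS replicate 1.

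Other PARP family genes were taken from a list of the family. Of 9 tested (PARP3, PARP4, TNKS, TNKS2, PARP6, TIPARP, PARP11, PARP15 and PARP16), none passed in KO, HA or SA against WT or on LPS in any line. Their median log2 fold change was 0.24 in KO and 0.44 in HA without LPS, beside -0.03 and -0.02 over all genes. TIPARP, an ADP-ribosyltransferase induced by the aryl hydrocarbon receptor and named after its values were seen, was the 1 gene of the list to pass in any comparison, lower in HA than in SA after LPS (-1.04 ± 0.22, limma adjusted p = 0.00488). PARP15, which lies beside PARP14 on chromosome 3, averaged 13.7 ± 3.06 in WT and 18.2 ± 3.85 in KO (SD, n = 4), with a log2 fold change of 0.39 ± 0.42 (limma adjusted p = 0.832). Among 13 tested ADP-ribose erasers and readers, 1 passed in unstimulated KO cells against WT (2.90% of all genes) and none in the other comparisons with WT. The list's median in unstimulated KO was 0.23. The gene that passed was ADPRHL2 (ADPRS), which removes ADP-ribose from serine, with 0.71 ± 0.16 (limma adjusted p = 0.00631) and 339 ± 43.7 in WT against 555 ± 85.4 in KO. HPF1, which directs PARP1 and PARP2 to serine, averaged 304 ± 67.8 in WT and 264 ± 104 in KO and did not pass (-0.29 ± 0.50, limma adjusted p = 0.921). Of 16 tested partners of the members, such as the ZC3HAV1 cofactors TRIM25 and KHNYN and subunits of the RNA exosome, 0 passed in any comparison, and their median in unstimulated KO was -0.04.

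Among 15 tested genes of NAD+ supply and use, CD38, an NAD+ glycohydrolase of the cell surface, was higher in KO than in WT by 0.80 ± 0.19 without LPS (limma adjusted p = 0.00714) and 0.88 ± 0.19 with LPS (limma adjusted p = 0.00253). NAMPT, the rate-limiting enzyme of NAD+ salvage, was higher after LPS by 1.53 ± 0.33 (limma adjusted p = 0.00329), at 123 ± 8.52 in WT and 374 ± 122 in KO. Of this list 1 gene thus passed in KO against WT without LPS (2.90% of all genes) and 2 with LPS (3.47%). No gene of this list passed in HA or SA against WT, nor on LPS in any line, and its median in KO was 0.25 without and 0.35 with LPS.

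Of 20 tested interferon signalling genes, 8 passed in KO against WT without LPS (2.90% of all genes) and 5 with LPS (3.47%), all higher. In HA 3 passed under each condition (2.52% of all genes without and 2.02% with LPS), again all higher. In SA 0 passed (0% of all genes under both conditions). The list's median log2 fold change in KO was 0.70 without and 0.96 with LPS, and in HA 0.51 and 0.27, beside -0.03 to -0.01 over all genes. Against SA, 6 passed in KO without LPS (2.86% of all genes) and 5 with LPS (2.93%). STAT2, a transcription factor of type I interferon signalling, was higher by 1.64 ± 0.28 in KO (limma adjusted p = 2.38e-04) and 1.45 ± 0.28 in HA (limma adjusted p = 0.00138), without LPS. The ubiquitin-like modifier ISG15 rose by 2.68 ± 0.28 in KO (limma adjusted p = 1.03e-07) and 1.64 ± 0.28 in HA (limma adjusted p = 3.74e-04). The ISG15 protease USP18, with 2.79 ± 0.59 (limma adjusted p = 0.00269), and the factor IRF7, with 1.93 ± 0.42 (limma adjusted p = 0.0033), passed in unstimulated KO cells. The kinase JAK2 passed in KO under both conditions, by 0.85 ± 0.17 (limma adjusted p = 0.00117) and 1.12 ± 0.17 (limma adjusted p = 2.87e-05). IRF1 passed in KO without LPS, by 0.84 ± 0.17, and after LPS in KO, by 1.75 ± 0.17, and HA, by 1.16 ± 0.17, with limma adjusted p of 0.00213, 5.18e-08 and 7.41e-05. It was also the gene of this list that LPS raised in all 4 lines, from 0.97 ± 0.17 in WT to 1.88 ± 0.17 in KO (limma adjusted p = 0.00307 and 4.35e-08). In SA, LPS also raised ISG15 by 1.35 ± 0.28 (limma adjusted p = 0.00931), a call that was lost without SA + LPS replicate 1, at 0.95 ± 0.23 (limma adjusted p = 0.0427).

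Interferon transcripts were few. IFNL1, a type III interferon, was at 0 reads in every unstimulated WT library and at 4 to 24 reads in KO, and passed in KO against WT under both conditions. After LPS it reached 38.3 to 136 normalized counts in KO and 0 to 5.20 in WT. HA libraries held 1 to 14 IFNL1 reads without LPS and 3 to 47 with it, and SA libraries 0 to 1 and 0 to 9. IFNL1 did not pass against WT in HA or SA. IFNB1, the type I interferon that LPS can induce, was too rare to test and had 0 to 70 reads in KO + LPS, against at most 2 in WT + LPS, 3 in HA + LPS and 1 in SA + LPS. IFNG had no read in any library, which allows for up to 3 reads in each.

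Likeness of pattern was measured as Pearson's r of log2(normalized count + 1) with each of the other tested genes over the 32 libraries. These share 8 groups and the library SA + LPS replicate 1, so r is a description. PARP9 and PARP14 were most like SP110, a nuclear body protein (r = 0.974), and IFI16, a sensor of DNA (r = 0.978), respectively, and each of these 2 genes was among the first 3 for both. PARP9 and PARP14 had r = 0.945 with each other, PARP9 and DTX3L 0.794. DTX3L was most like LYN (0.925), OAS2 and RGL1, PARP10 most like LAP3 (0.907), STAT2 and PML, and PARP12 most like DHX58 (0.950), CUL1 and TAP1. ZC3HAV1 came nearest to GBP5 (0.950), BIRC3 and APOL6. PARP8 was nearest to SFT2D2 (0.895), MICAL1 and GBP2, and PARP2 had no gene above 0.781, that of NIPSNAP1. PARP1 was nearest to ZEB2 (0.956), NELFE and NRDC. No member was among the first 3 of another member by this measure. By ranks (Spearman's rho), PARP14 was among the first 3 of PARP9 (0.958). By that measure PARP1 was nearest to OSBP, CLIP1 and UBR4, and PARP2 to TWIST1, WDR3 and AC011447.3. None of these was among the first 3 of PARP1 or PARP2 by r.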

How the data were processed

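From THP-1 RNA, 32 libraries were made by QuantSeq 3′ FWD, which yields reads near transcript 3′ ends. Per the methods, the authors trimmed reads with Bbduk, aligned them to GRCh38 with STAR, counted genes with HTSeq-count and scaled the counts by DESeq2. Each of the 8 deposited tables gives normalized counts, set to a scale of its own line and written with decimal commas, for 60107 genes and 92 spike-ins, which held 1 read in all.

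Dividing by the value of 1 read gave whole reads for 100.0% of values within 0.05 reads. Reads were rescaled by median-of-ratios size factors over all libraries, from which the deposited factors differed by up to 14.219%. Log2(normalized count + 1) of the 12406 genes with a mean deposited count of at least 10 was fitted with limma 3.58.1 in R 4.3.3 (eBayes with trend, 1 mean per group), with Benjamini-Hochberg adjustment over these genes and a limit of 0.01, the study's own. Errors are standard errors for log2 fold changes and SD for levels. The fit was tested on simulated data with the same dispersion for all genes, no outlying library and no paired replicates, so the test does not cover these features of the data.

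Depth was 6504099 to 14750815 reads on genes (median 10247620). No molecular identifiers are named in the sources used here, and counting error is a lower limit of the error. Replicate numbers were taken to pair libraries where every same-number correlation of deviations from the group means exceeded 0.1: KO with WT without LPS (0.334 to 0.682) and with LPS (0.179 to 0.723), and LPS with unstimulated cells in WT (0.263 to 0.68) and KO (0.124 to 0.675). The labels do not say whether the libraries of a group came from separate cultures; the study's methods speak in general of independent experiments, not of these libraries.

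Members and gene lists were chosen with earlier results of these data known. All members are named in every comparison. Of the other lists, genes called against WT are named, with up to 3 per list called on LPS, and IFNB1, IFNG, PARP15 and HPF1, except that 1 gene counted in a list is not reported here. Likeness names the 3 genes with the highest r. Alternatives were other scales, a pseudocount of 5, no filter, fits on the compared groups alone, a replicate block over all libraries or on the compared groups alone, limma voom on recovered reads and leaving out each library.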

Additional observations from a re-analysis of the deposited data

Results flagged for a closer look

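A library was set apart where its gap to the nearest of the other 3 in its group was over Dixon's critical share of the group's range. Of 80 groups tested, 12 had such a library, where chance gives about 1 in 20, and 6 of the 12 were SA + LPS replicate 1. That library held 1455 normalized counts of PARP9 (640 to 683 in the others), 340 of PARP10 (75.1 to 90.6), 12.7 of PARP12 (114 to 122), 12355 of PARP1 (4806 to 4997) and 122 of PARP2 (259 to 272), and its PARP9 reads per DTX3L read were 1.31 (0.312 to 0.386).

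HA + LPS replicate 1 was high for PARP10, at 343 (85.2 to 125), and for PARP2, at 302 (202 to 218). WT replicate 1 was high for DTX3L, at 1188 (1025 to 1047 in the others), and PARP12, at 102 (61.1 to 63.9). WT replicate 3 was high for PARP9, at 347 (265 to 277), and PARP8, at 335 (268 to 278).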

How the results depend on the processing

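Over 9 alternatives that kept every library, 1483 of 1539 member fold changes kept their side of the limit, 34 lost and 22 gained a call. No called value changed direction, and 18 uncalled ones, counted among the 1483, did. Leaving out each library in turn kept 5387 of 5472 on their side of the limit, with 67 lost and 18 gained. Among the 5387 were 77 uncalled values of opposite sign. Other named genes lost 72 of 405 and 131 of 1440 calls. Of 96 ratio values without 1 library, 11 changed sign.

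With the replicate number as a block and only the compared groups, 5 (KO, unstimulated, 5.84% of all genes) and 7 (KO, LPS, 10.8%) members were called against WT. On LPS in WT 4 were called (1.02%). The count was 0 for HA against WT and for KO against SA, each with or without LPS. It was also 0 for HA against SA with LPS and for LPS in SA. In these comparisons with 0 the replicate numbers were not shown to pair libraries. With the block over all libraries, 3 and 5 were called in KO against WT without and with LPS (3.47% and 4.47% of all genes) and 2 on LPS in WT (0.314%). The same fit called 2 in HA against WT with LPS, 1 in HA against SA without LPS and 3 on LPS in SA. The block changed no other number of calls by over 1.5 times. On the deposited scale 4 were called in HA against WT with LPS, where 352 of all genes passed. That scale gave 0 in KO and in HA against SA with LPS, where 1192 and 301 of all genes passed. Fits of only the compared groups called 0 in HA against WT, KO against SA and HA against SA with LPS, and 0 on LPS in KO or SA, with fewer samples behind the spread. HA against SA with LPS also gave 0 on the total-read scale, where 239 genes passed, and with no filter. The number of all genes called also changed with the fit, so a changed count is not a result about the members alone. For counts without a share of all genes beside them, that share is not given here. The cause was not tested.

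Without 1 library, the members called ranged from 0 to 2 in HA against WT with LPS, 1 to 3 in KO against SA with LPS, 0 to 1 in HA against SA without and with LPS, 0 to 1 on LPS in WT and 1 to 2 on LPS in SA. Shares of all genes are not set beside these ranges. The 2 planned count models were not run, and limma voom on recovered reads was chosen after seeing the files in their place. Depth limits PARP10 and PARP12, with as few as 16 and 11 reads in a library.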
